A study of Mus musculus with 17 samples.

Results

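The genes described here encode the receptors for serotonin, dopamine, noradrenaline and acetylcholine in the cortex of Hnrnph2 mutant mice. They were taken by symbol: the serotonin receptors Htr1 to Htr7, the dopamine receptors Drd1 to Drd5, the alpha and beta adrenergic receptors (Adra, Adrb), the muscarinic acetylcholine receptors (Chrm) and the subunits of nicotinic acetylcholine receptors (Chrn). The table held 49 such genes among 55453 symbols. Bulk cortex of 17 male mice was sequenced, all labelled C57BL/6J. At 8 weeks there were 3 hemizygous Hnrnph2 KO mice with 3 wild-type littermate controls, and 3 hemizygous Hnrnph2 R206W mice with 3 wild-type controls of that line. At 3 weeks there were 3 hemizygous Hnrnph2 P209L mice and 2 wild-type controls. Hnrnph2 is X-linked and encodes an RNA-binding protein, and both substitutions lie in its nuclear localization signal. The P209L line was the only one sampled at 3 weeks, so that line and age cannot be told apart in it. The study used a pair of KO lines, its own indel line on C57BL/6J and a repository line on C57BL/6NJ. The labels do not name the line, and the strain they give is that of the indel line.

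Monoamines and acetylcholine reach the cortex mainly on long axons from nuclei in the brainstem and basal forebrain, and their receptors set how cortical neurons respond to them. Most are G protein-coupled: Gq/11 receptors activate phospholipase C beta, Gs receptors raise cyclic AMP and Gi/o receptors lower it. The nicotinic receptors and the serotonin receptor subunits Htr3a and Htr3b form ion channels instead. In cortex the muscarinic receptor Chrm1 and the serotonin receptor Htr2a are known from pyramidal neurons, and Htr3a from a class of interneurons.

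Values are TPM, the share of a transcript among 1000000 after division by its length, so that levels can be set side by side between genes. Of the 49 genes, 27 had a mean of at least 1 TPM over the 17 mice and were tested: 9 of 14 serotonin, 1 of 5 dopamine, 8 of 9 adrenergic, 4 of 5 muscarinic and 5 of 16 nicotinic receptor genes. The other 22 had means of 0 to 0.899 TPM. Differences are given on the scale of log2(TPM + 1), with the standard error (SE) and a p-value from limma, adjusted over all 16265 genes tested.

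One library stood apart. In KO control 1, 20.14% of TPM came from mitochondrial genes, against 10.67% to 15.36% in the other 16 mice, and it had the lowest value of the 12 mice at 8 weeks for 21 of the 27 tested receptors. At the other end, R206W 3 had the highest value for 15 of the 27 and the lowest mitochondrial share. Some of the results that rest on either mouse are given with and without it. The targeted transcript, Hnrnph2, was at 21.3 to 24.4 TPM in KO mice and 80.5 to 144.7 TPM in their controls. All 10 cortical projection neuron markers were detected, and their summed level was 683 to 1276 TPM over the 12 mice at 8 weeks and 732 to 936 TPM over the 5 at 3 weeks.

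Muscarinic receptors carried the most transcript at both ages. Chrm1 had the highest mean of the 49 genes, 75.7 TPM over the 17 mice, followed by Chrm3 with 29.9 TPM and Chrm4 with 22.6 TPM. The most abundant adrenergic receptors were Adrb1 at 17.9 TPM, Adra1d at 14.8 TPM and Adra1b at 12.7 TPM. Among serotonin receptors Htr2a was highest at 14.3 TPM. Summed by family, adrenergic receptors had a higher mean than serotonin receptors in the 12 mice at 8 weeks (78.95 and 61.84 TPM) and a lower one in the 5 at 3 weeks (42.91 and 50.17 TPM). The nicotinic subunits Chrna4 and Chrnb2, which assemble into the main heteromeric nicotinic receptor of the brain, had nearly the same mean level, 14.1 and 14.2 TPM. Of the dopamine receptors only Drd1, which is coupled to Gs, passed the filter, with a mean of 6.55 TPM in the 12 mice at 8 weeks. The muscle-type nicotinic subunits Chrnd and Chrng were listed at 0 in all 17 mice.

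**Figure D1:**
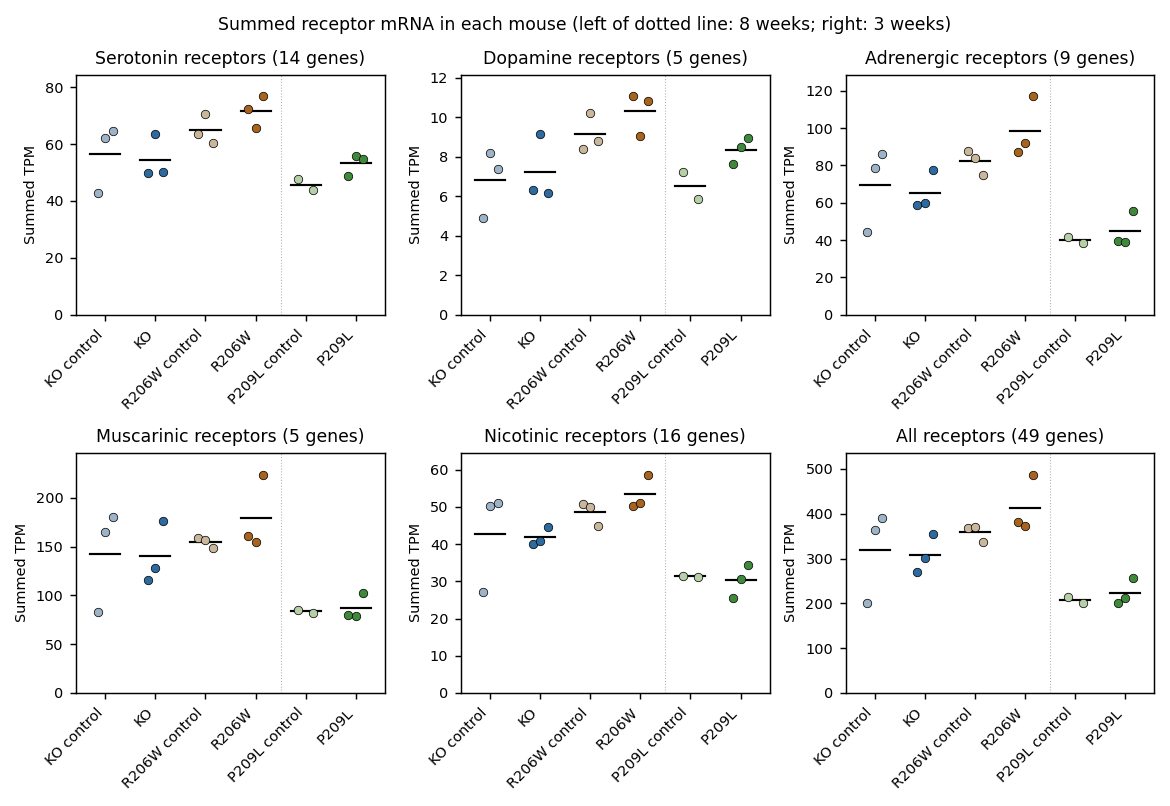
Summed TPM of each receptor family (y axis, from 0) in every mouse (points) of the 6 groups (x axis), with a line at the group mean; the dotted line parts the ages. The 5 mice at 3 weeks lie between 201.2 and 256.7 TPM for all receptors, and among the mice at 8 weeks only KO control 1, at 201.4 TPM, is in that range.

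Summed over the 49 genes, the level was 201.4, 364.4 and 390.1 TPM in KO controls and 270.4, 301.4 and 354 TPM in KO mice. It was 369.2, 371.2 and 337.3 TPM in R206W controls and 381.3, 372.3 and 487.1 TPM in R206W mice. At 3 weeks it was 213.5 and 201.3 TPM in P209L controls and 201.2, 212.7 and 256.7 TPM in P209L mice. KO and P209L mice overlapped with their controls in this sum, whereas the 3 R206W mice lay above their controls, with R206W 2 at 372.3 TPM just over R206W control 2 at 371.2 TPM. In bulk tissue, fewer cells of a type and less RNA per cell cannot be told apart.

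The upstream sequences of Adra1b, Htr1b and Chrm2 are shown next. No receptor was called in a mutant comparison of the main fit, and Chrm2 was 1 of 13 called between the ages in controls. Each run is the 250 bases before a RefSeq start (GRCm38.p6), on the strand of the gene, with matches to 3 promoter motifs in capitals: the GC box (GGGCGG or CCGCCC), the CCAAT box (CCAAT or ATTGG) and the TATA box (TATAAA or TTTATA). Adra1b, a Gq/11-coupled alpha-1 adrenergic receptor on chromosome 11 (minus strand), lies at chr11:43774606-43901210 (GRCm38) and is shown because it had the largest difference in R206W mice, and RefSeq gives it 2 starts, 64748 bases apart. Htr1b, a Gi/o-coupled serotonin receptor known as an autoreceptor on serotonin axons, is shown because it had the smallest p-value of the tested receptors in P209L mice, and Chrm2, a Gi/o-coupled muscarinic receptor, because it was lower at 3 weeks.
Adra1b, outer start, chr11:43901238-43901487: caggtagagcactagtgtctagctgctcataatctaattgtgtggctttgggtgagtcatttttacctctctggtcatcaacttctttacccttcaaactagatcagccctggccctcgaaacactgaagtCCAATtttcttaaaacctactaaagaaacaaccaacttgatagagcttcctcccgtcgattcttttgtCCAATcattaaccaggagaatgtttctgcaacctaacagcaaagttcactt
Adra1b, inner start, chr11:43836490-43836739: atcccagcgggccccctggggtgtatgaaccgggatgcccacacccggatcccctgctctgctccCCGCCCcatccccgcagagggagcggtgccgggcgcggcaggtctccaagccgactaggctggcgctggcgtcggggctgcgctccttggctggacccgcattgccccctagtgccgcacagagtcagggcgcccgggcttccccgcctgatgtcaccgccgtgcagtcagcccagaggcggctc
Htr1b, minus strand, chr9:81633833-81634082: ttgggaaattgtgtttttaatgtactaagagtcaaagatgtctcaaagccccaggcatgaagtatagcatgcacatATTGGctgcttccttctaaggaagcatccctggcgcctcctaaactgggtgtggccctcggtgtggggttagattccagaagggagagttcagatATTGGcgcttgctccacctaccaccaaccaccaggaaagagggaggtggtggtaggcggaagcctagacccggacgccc
Chrm2, plus strand, chr6:36387834-36388083: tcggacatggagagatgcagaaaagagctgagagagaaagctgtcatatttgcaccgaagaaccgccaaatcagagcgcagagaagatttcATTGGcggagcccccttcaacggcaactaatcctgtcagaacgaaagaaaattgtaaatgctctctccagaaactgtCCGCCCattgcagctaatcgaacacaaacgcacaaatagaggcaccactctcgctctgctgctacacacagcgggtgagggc

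The outer Adra1b window was 41.6% G or C and held 2 CCAAT boxes, 119 and 51 bases before the start. The inner window was 72.8% G or C and held 1 GC box. The values are summed per gene and do not say from which start the transcripts came. The Htr1b window held 2 CCAAT boxes in reverse orientation, and the Chrm2 window held 1 CCAAT box and 1 GC box. RefSeq windows were found for 37 of the 49 receptor genes, 42 windows in all. A GC box was present in 47.6% of them against 32.7% of all 32851 windows, a CCAAT box in 26.2% against 33.8%, and a TATA box in 4.76% against 12.4%. Of 2 further motifs, both palindromes, the E-box CACGTG was present in 7.14% against 6.02%, and the cyclic AMP response element TGACGTCA in 0 of 42 windows against 1.55% of all. These are matches of letters within a short window and were not tested.

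The first comparison asked whether loss of Hnrnph2 changed receptor transcripts. No receptor passed the threshold in KO mice, and none had an unadjusted p under 0.05. Of all genes tested 0.00615% were called, a single gene, which was Hnrnph2 itself, and 4.08% had an unadjusted p under 0.05. The differences of the 27 receptors ran from -0.40 to 0.39, with a median of 0.038 against 0.064 over all genes, and 15 were above 0, as were 67.3% of all genes. The lowest was that of Htr2a, the Gq/11-coupled serotonin receptor, with 11.7, 12.88 and 8.3 TPM in KO mice and 10.22, 17.13 and 17.57 TPM in controls (log2 change -0.40, SE 0.198, adjusted p = 0.999). The groups overlap through KO control 1 alone. Of the 26 tested receptors described singly here, none had groups that did not overlap. Over all genes, 6.25% did not overlap, 0.824% with KO mice lower and 5.43% with KO mice higher.

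Without KO control 1, the median of the receptors in the KO comparison was -0.209, against -0.059 over all genes, and 4 of the 27 were above 0. Still no receptor passed the threshold. In that fit 7 receptors had an unadjusted p under 0.05, all lower in KO mice, against 10.5% of all genes. They were Htr2a (-0.64, SE 0.176), Htr1b (-0.61, SE 0.196), Adra1b (-0.61, SE 0.223), Adra1d (-0.55, SE 0.245), Chrm2 (-0.51, SE 0.144), Chrna4 (-0.38, SE 0.103) and Htr5a (-0.23, SE 0.108), with adjusted p-values of 0.406 to 0.473. With KO control 1 kept and all libraries scaled by size factors, 9 of the 27 were above 0 in place of 15, with a median of -0.041. The share and median of all genes in that scaling are not given here. With libraries weighted by their spread, which gave KO control 1 the lowest weight, 8 receptors were called, all lower in KO mice, against 10% of all genes called lower.

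The second comparison asked the same of R206W at 8 weeks. No receptor passed the threshold, with 0.0369% of all genes called. Adra1b alone had an unadjusted p under 0.05, as did 2.19% of all genes, 1.31% with R206W mice higher. It was at 12.71, 13.57 and 11.97 TPM in R206W controls and at 21.15, 22.37 and 23.86 TPM in R206W mice. Each R206W mouse lay above every other mouse of the series, of either age, for this gene, the highest of which was KO control 3 at 16.9 TPM. The mean was 22.5 ± 1.36 TPM against 12.8 ± 0.801 TPM (SD, n = 3 each), and the difference was 0.77 (SE 0.249, 95% interval 0.24 to 1.30, unadjusted p = 0.00716, adjusted p = 1). The spread behind that SE was shared over all 6 groups, including KO controls (7.73, 13.9 and 16.9 TPM) and P209L mice (7.27, 7.13 and 15.22 TPM), whose Adra1b values varied more. In a fit of the R206W mice and their controls alone the SE was 0.0737 and the adjusted p 0.0355. Of 29 alternatives only 2 passed the threshold, that fit and the one with libraries weighted by their spread. All others did not, among them every fit that left out a mouse.

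**Figure D2:**
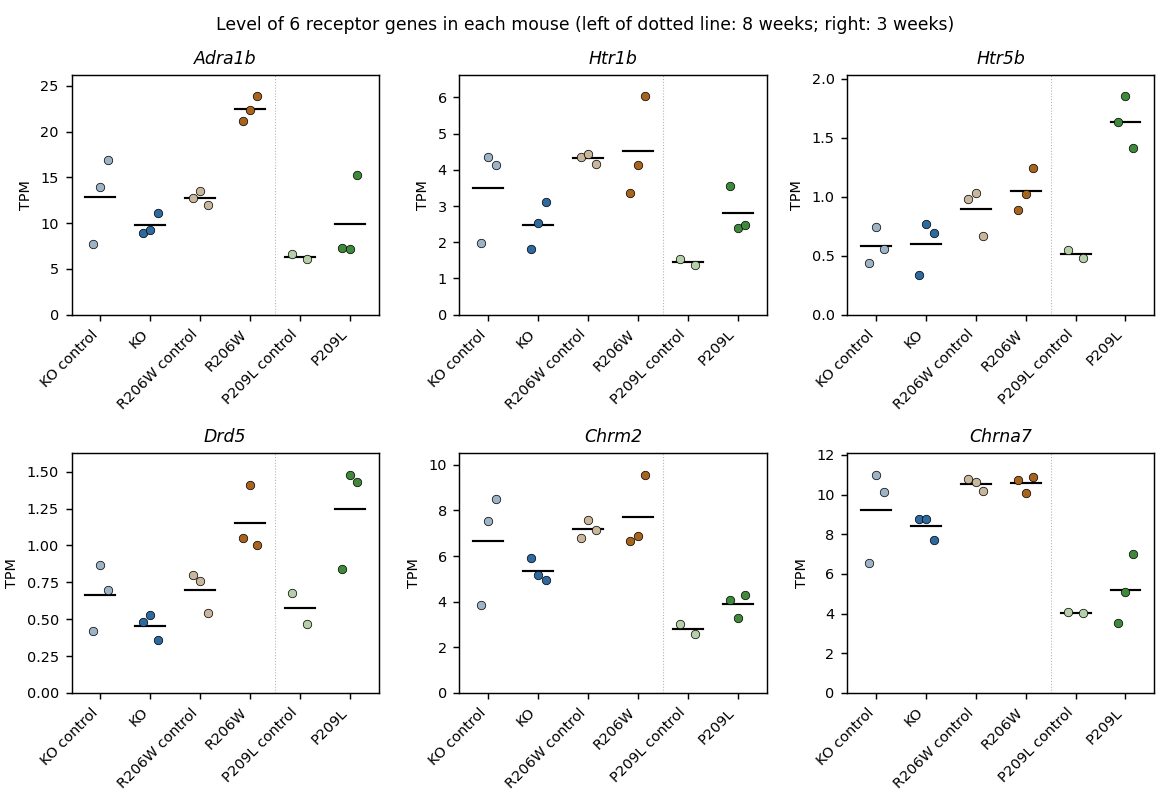
TPM (y axis, from 0) of 6 receptor genes in every mouse (points) of the 6 groups (x axis), with a line at the group mean; the dotted line parts the ages. Adra1b is at 21.15 to 23.86 TPM in R206W mice and at 6.05 to 16.9 TPM in all others, and Chrna7 is at 3.51 to 6.98 TPM at 3 weeks, where P209L 3 is the one mouse above KO control 1 (6.56 TPM).

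Among the other receptors in R206W mice, 3 were higher in every mutant than in every control, with Adra1b 4 of the 27, against 8.09% of all genes that did so. None was lower in this way, against 8.11% of all genes. Chrm3, a Gq/11-coupled muscarinic receptor, was at 39.83, 36.9 and 56.25 TPM in R206W mice and 35.01, 34.93 and 32.53 TPM in controls (0.34, SE 0.247, adjusted p = 1). Htr2a was at 20.82, 20.04 and 20.56 TPM against 15.8, 19.01 and 16.67 TPM (0.25, SE 0.198, adjusted p = 1). Chrnb3, an accessory nicotinic subunit, was at 2.09, 1.91 and 3.26 TPM against 1.76, 1.89 and 1.59 TPM (0.30, SE 0.211, adjusted p = 1). Chrm3 and Chrnb3 were highest in R206W 3, while the 3 mutants lay close together for Htr2a. The median of the 27 was 0.093 against 0.0096 over all genes, and 23 were above 0, as were 52.9% of all genes. Without R206W 3 the median was 0.018 and 16 were above 0, with the values of all genes in that fit not given.

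The third comparison concerned P209L at 3 weeks, with 2 controls. No tested receptor passed the threshold, and 0.0984% of all genes did, 0.0799% higher. Htr1b had the smallest p-value. It was at 1.54 and 1.37 TPM in controls and at 3.56, 2.39 and 2.47 TPM in P209L mice (0.62, SE 0.248, 95% interval 0.092 to 1.15, unadjusted p = 0.0242, adjusted p = 0.565). It was the only tested receptor with an unadjusted p under 0.05, against 7.46% of all genes, 4.56% higher and 2.9% lower. An annotated antisense transcript, D430036J16Rik, lies over Htr1b, and whether reads were counted by strand is not given in the sources used here.

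In P209L mice 5 receptors were higher in all 3 mutants than in both controls and 1 was lower, 6 of 27 against 24.9% of all genes, so that the share was close to the background. Besides Htr1b, the 5 were Adra1b (6.63 and 6.05 TPM in controls, 7.27, 7.13 and 15.22 TPM in mutants), Chrm2 (3.01 and 2.57 TPM against 4.09, 3.29 and 4.29 TPM), Drd1 (5.63 and 4.05 TPM against 6.06, 6.23 and 6.43 TPM) and Htr1f, a Gi/o-coupled serotonin receptor (1.16 and 0.88 TPM against 1.34, 1.47 and 1.5 TPM). Chrna4 was the one lower, at 10.68 and 10.17 TPM in controls and 8.43, 9.38 and 9.79 TPM in mutants. Their adjusted p-values were 0.774 to 0.951. The high Adra1b mean in P209L mice came from P209L 3 alone. The median of the receptors was 0.036 against 0.016 over all genes, and 17 of the 27 were above 0, as were 53.5% of all genes. Without P209L 3 the median was -0.046 and 12 were above 0, with the values of all genes in that fit not given.

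P209L controls differed from P209L mice in markers of other tissues and cell types, for choroid plexus in P209L control 2 alone. The part of these markers in the receptor values was not tested. The 8 choroid plexus markers summed to 10.9 TPM in P209L control 1 and 1788 TPM in P209L control 2, against 5.98 to 16.1 TPM in P209L mice, and all 8 were above 0 somewhere. The 10 oligodendrocyte markers summed to 4284 to 6383 TPM in the controls and 2591 to 3695 TPM in the mutants, and 9 of the 10 were lower in mutants at an unadjusted p under 0.05, none after adjustment. The 11 skeletal muscle markers summed to 113 to 117.1 TPM in controls and 48.65 to 61.71 TPM in mutants, and 2 of the 5 tested, Myh7 and Tnnc1, were called lower in mutants. Htr2c, a Gq/11-coupled serotonin receptor known for its high level in choroid plexus, was at 7.5 TPM in P209L control 1 and 8.85 TPM in P209L control 2, and at 9.64, 14.02 and 6.83 TPM in P209L mice.

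**Figure D3:**
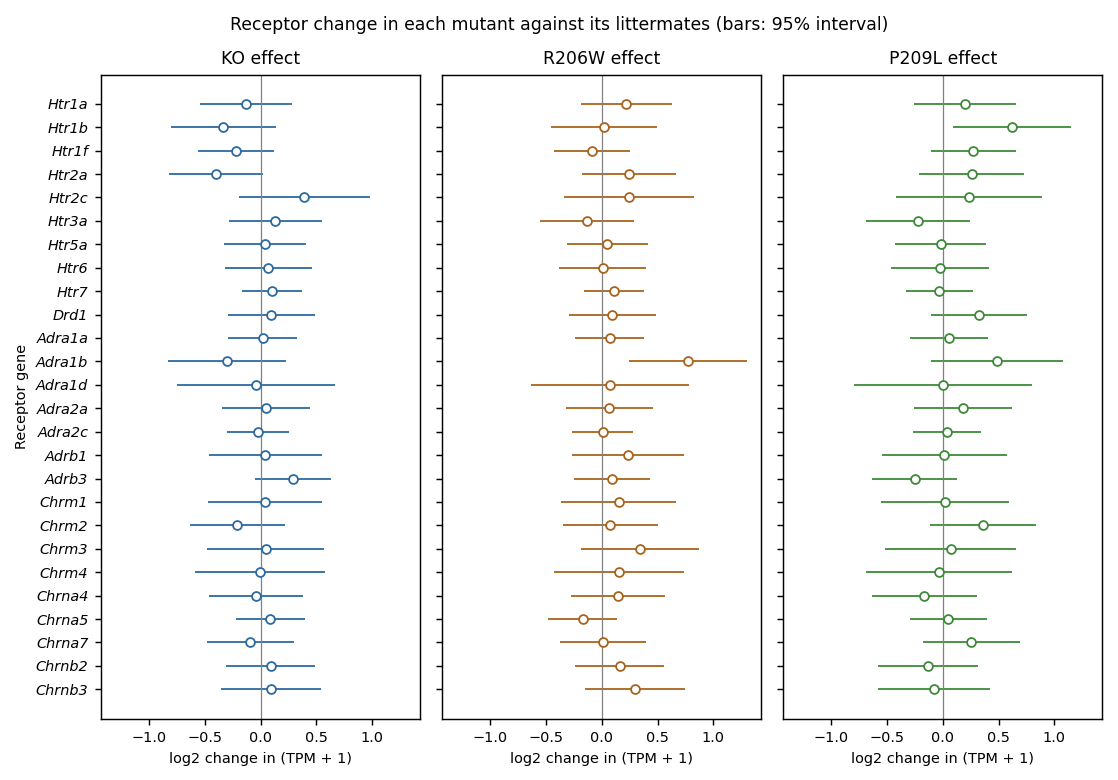
Difference in log2(TPM + 1) between mutants and littermate controls (x axis) for 26 of the 27 tested receptors (y axis, by family), for KO, R206W and P209L; points are estimates, bars 95% intervals, and open points did not pass the threshold. All points are open, and only the bars of Adra1b in R206W, 0.24 to 1.30, and Htr1b in P209L, 0.092 to 1.15, are clear of 0.

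Among the 22 receptors under the filter, a fit of all genes with no filter gave 1 call in P209L mice, against 52 of 33969 genes. Htr5b, a serotonin receptor gene at chr1:121509842-121528465 (GRCm38), was at 0.55 and 0.48 TPM in P209L controls and at 1.63, 1.85 and 1.41 TPM in P209L mice (0.79, SE 0.136, adjusted p = 0.0401). The 3 P209L values were the highest of the 17 mice, since the 8-week mice ran from 0.34 to 1.24 TPM. With a filter at 0.5 TPM, which Htr5b passes, the adjusted p was 0.0729, so that the call depends on the filter. A processed pseudogene, Gm8217, is annotated within Htr5b on the opposite strand, so that the limit given for Htr1b holds here. Drd5, a Gs-coupled dopamine receptor, was at 0.68 and 0.47 TPM in P209L controls and 0.84, 1.48 and 1.43 TPM in P209L mice, and at 0.8, 0.76 and 0.54 TPM in R206W controls and 1.05, 1.41 and 1 TPM in R206W mice. Every mutant was above every control in both knockin lines, against 14.2% of the genes that passed the filter in P209L and 8.09% in R206W. Of the tested receptors, Adra1b also lay above its controls in both lines. In P209L it did so by little apart from P209L 3, at 7.27 and 7.13 TPM against 6.63 and 6.05 TPM. The share of all genes that did so in both lines at once is not given, so neither gene can be set against it. Drd5 was itself under the filter that the single-line shares used. In the KO line Drd5 was at 0.48, 0.53 and 0.36 TPM in mutants and 0.42, 0.87 and 0.7 TPM in controls, which overlapped. Drd5 was singled out after its values had been seen, and in P209L mice Htr5b, Chrna1, Chrnb4 and Drd4, also under the filter, did not overlap either, the last pair being lower in mutants. In R206W mice Chrna10, under the filter too, was higher without overlap (0.16, 0.25 and 0.16 TPM against 0.06, 0.1 and 0.04 TPM). Without a filter the Drd5 differences were 0.50 (SE 0.149, adjusted p = 0.368) in P209L, 0.34 (SE 0.133, adjusted p = 1) in R206W and -0.18 (SE 0.133, adjusted p = 1) in KO mice. The KO effect minus the R206W effect was -0.52 for Drd5 (SE 0.189, adjusted p = 1). Drd5 has an annotated antisense partner, Gm26560, with the same limit as for Htr1b.

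The precision of the mutant comparisons can be read from the intervals. The distance from the estimate to either end of its 95% interval had a median of 0.411 in the KO and R206W comparisons and 0.46 in the P209L comparison, where it reached 0.794 for Adra1d. In the KO comparison the intervals of all 27 receptors lay between -1 and 1, and in the R206W and P209L comparisons those of 26 and 25 did.

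The effects of the mutations were also compared with each other. For the KO effect minus the R206W effect no receptor passed the threshold, and 0.0307% of all genes did. The difference was -1.07 for Adra1b (SE 0.352, unadjusted p = 0.00783, adjusted p = 1) and -0.65 for Htr2a (SE 0.281, unadjusted p = 0.0352, adjusted p = 1). They were the only 2 with an unadjusted p under 0.05, against 2.29% of all genes, 1.64% above 0 and 0.658% below. Over the 27 receptors 6 were above 0, as were 63% of all genes. Over 29 alternatives the Adra1b difference ran from -1.38 to -0.858 and that of Htr2a from -0.884 to -0.476. The alternatives included the leaving out of each mouse. In the KO comparison alone Adra1b was at -0.30 (SE 0.249, adjusted p = 0.999). For the P209L effect minus the R206W effect no receptor passed and none had an unadjusted p under 0.05, with 0 genes called in all and 3.98% of genes at that unadjusted p, 2.42% above 0 and 1.56% below. For Htr1b that difference was 0.60 (SE 0.333, adjusted p = 1). Between the controls of the R206W and KO lines, both wild type at 8 weeks, no receptor and no other gene was called. Adra2a alone had an unadjusted p under 0.05 (0.44 higher in R206W controls, adjusted p = 0.784), against 3.12% of all genes, 2.82% higher. In all, 26 of the 27 receptors had a difference above 0, as had 83.9% of all genes. Without KO control 1, 11 of the 27 had, and the share of all genes in that fit is not given.

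The ages were compared next. Between the 2 controls at 3 weeks and the 6 controls at 8 weeks, 13 of the 27 tested receptors passed the threshold and all 13 were lower at 3 weeks. Of all genes, 36.1% were called, 24.8% lower. The median of the receptors was -0.53 against -0.12 over all genes, and with size factors, which bring the median of all genes to -0.022, it was -0.465. In that scaling 16 receptors were called, 15 lower and 1, Adrb3, higher. Of the calls over all genes in it 45.6% were higher, against 1837 higher and 4039 lower before. That is a share of the calls, and the share of all genes called in that scaling is not given here. The 3-week mice are all of the P209L line, and in their controls all 5 blood markers and 8 of 10 oligodendrocyte markers were higher than in 8-week controls, while 5 of 10 cortical projection neuron markers were lower and none higher. The part of these in the receptor values was not tested.

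By family, all 4 tested muscarinic receptors were lower at 3 weeks. Chrm2 was at 3.01 and 2.57 TPM in the 3-week controls and at 3.87, 7.34 and 8.51 TPM as the lowest, median and highest of the 6 controls at 8 weeks (-1.03, SE 0.2, adjusted p = 0.00128). Chrm3 was at 16.7 and 16.44 TPM against 16.96, 34.97 and 40.34 TPM (-0.90, SE 0.247, adjusted p = 0.0109). The lowest value at 8 weeks in both was that of KO control 1, and the other 5 controls were far above the 3-week mice. Chrm4, which is coupled to Gi/o, was at 14.85 and 11.37 TPM against 14.39, 26.98 and 32.01 TPM (-0.89, SE 0.275, adjusted p = 0.0199). Chrm1 was at 50.68 and 51.78 TPM against 47.12, 86.87 and 102.8 TPM (-0.65, SE 0.242, adjusted p = 0.0478). These overlapped through KO control 1 alone.

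Of the 8 tested adrenergic receptors, 5 were lower at 3 weeks. They were all 3 alpha-1 receptors, which couple to Gq/11, with Adra2c and Adrb1. Adra1a had the smallest p-value of all receptors, at 3.17 and 3.31 TPM in 3-week controls and 5.71, 8.69 and 9.11 TPM in 8-week controls (-1.10, SE 0.147, adjusted p = 9.40e-05). The P209L mice, at 3.04, 2.93 and 4.36 TPM, also lay below every mouse at 8 weeks. Adra1d had the largest difference, 6.75 and 5.46 TPM against 6.77, 20.83 and 22.07 TPM (-1.37, SE 0.334, adjusted p = 0.00555). Adra1b was at 6.63 and 6.05 TPM against 7.73, 13.14 and 16.9 TPM (-0.88, SE 0.249, adjusted p = 0.0129). The Gi/o-coupled Adra2c was at 4.76 and 4.97 TPM against 5.9, 8.15 and 8.79 TPM (-0.59, SE 0.129, adjusted p = 0.00287), and the Gs-coupled Adrb1 at 12.43 and 9.75 TPM against 11.74, 20.52 and 25.5 TPM (-0.74, SE 0.237, adjusted p = 0.0243). Adra2a, in contrast, was at 5.62 and 5.52 TPM against 4.02, 6.92 and 7.65 TPM (-0.13, SE 0.184, adjusted p = 0.611). Adrb3 was at 1.07 and 1.66 TPM against 0.53, 0.815 and 1.12 TPM (0.37, SE 0.161, adjusted p = 0.0877).

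**Figure D4:**
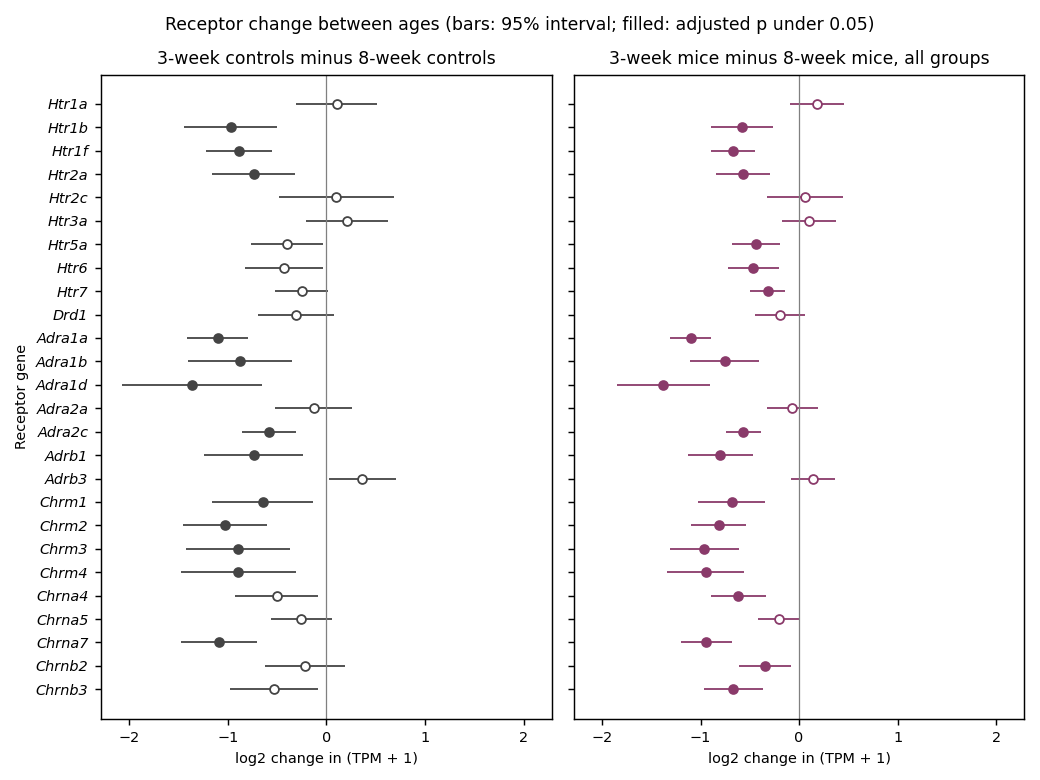
Difference in log2(TPM + 1) between 3-week and 8-week mice (x axis) for 26 of the 27 tested receptors (y axis, by family), in controls (left) and over all groups (right); points are estimates, bars 95% intervals, and filled points passed the threshold. All 13 filled points on the left and all 19 on the right lie below 0.

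Of the 9 tested serotonin receptors 3 were lower at 3 weeks. The Gi/o-coupled Htr1f was at 1.16 and 0.88 TPM in 3-week controls and 2, 2.76 and 3.5 TPM in 8-week controls (-0.89, SE 0.16, adjusted p = 0.00077). Htr1b was at 1.54 and 1.37 TPM against 1.97, 4.26 and 4.44 TPM (-0.97, SE 0.222, adjusted p = 0.00377), and Htr2a at 9.63 and 8.55 TPM against 10.22, 16.9 and 19.01 TPM (-0.74, SE 0.198, adjusted p = 0.00978). For each of the 3, no 3-week control overlapped with an 8-week control. The Gi/o-coupled Htr1a, by contrast, was at 6.2 and 5.5 TPM against 3.8, 5.56 and 6.6 TPM (0.10, SE 0.193, adjusted p = 0.704), and the ion channel subunit Htr3a and Htr2c were likewise not called. Of the 5 nicotinic subunits only Chrna7, which forms homomeric channels, passed, at 4.07 and 4.03 TPM against 6.56, 10.38 and 11 TPM (-1.09, SE 0.182, adjusted p = 0.000461). Drd1 was not called (-0.31, SE 0.182, adjusted p = 0.198).

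By coupling, the controls had 6 of 7 Gq/11 receptors called lower at 3 weeks, 5 of 8 Gi/o receptors, 1 of 6 Gs receptors and 1 of 6 ion channel subunits, beside the 24.8% of all genes called lower. Over all groups these counts were 6, 6, 4 and 4, beside 39.4% of all genes, and a difference between coupling classes was not tested. In 12 of the 27 receptors both 3-week controls lay below all 6 controls at 8 weeks, against 21.5% of all genes. Without KO control 1, 20 receptors were called, all lower, against 37.4% of all genes called lower. Leaving out P209L control 1 or P209L control 2 leaves a lone 3-week control, whose spread is taken from the other groups. No count is given for those fits. Adra1a, Adra2c, Chrm2, Chrna7 and Htr1f kept their call in every alternative tried, and the call for Chrm1 was lost in 16 of 29.

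With all groups in the contrast, the 5 mice at 3 weeks and the 12 at 8 weeks, 20 of the 27 receptors were called and all 20 were lower at 3 weeks, against 39.4% of all genes called lower. Among the 7 that joined the 13 were Chrna4, Chrnb3, Chrnb2, Htr5a, Htr6 and Htr7. Chrna4 was at 10.68 and 10.17 TPM in P209L controls and 8.43, 9.38 and 9.79 TPM in P209L mice, with 8.3, 17.07 and 20.59 TPM as the lowest, median and highest of the 12 mice at 8 weeks (-0.62, SE 0.131, adjusted p = 0.000989). Its partner Chrnb2 was at 12.35 and 12.07 TPM in P209L controls and 9.66, 11.48 and 12.07 TPM in P209L mice, against 8.62, 16.04 and 19.96 TPM (-0.35, SE 0.125, adjusted p = 0.0261). Apart from KO control 1, no mouse at 8 weeks was as low as those at 3 weeks for either subunit.

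The 4 others named were less abundant. Chrnb3 was at 0.54 to 1.28 TPM at 3 weeks and 0.94, 1.85 and 3.26 TPM at 8 weeks (-0.67, SE 0.14, adjusted p = 0.000867). Htr5a, a Gi/o-coupled serotonin receptor, was at 6.29 to 7.98 TPM against 6.06, 10.05 and 11.78 TPM (-0.44, SE 0.114, adjusted p = 0.00408). Of the Gs-coupled receptors, Htr6 was at 1.29 to 1.77 TPM against 1.38, 2.6 and 3.08 TPM (-0.46, SE 0.122, adjusted p = 0.00431) and Htr7 at 4.41 to 5.97 TPM against 5.66, 6.5 and 8.16 TPM (-0.32, SE 0.0834, adjusted p = 0.0042). In 3 receptors, Adra1a and Adra2c among them, all 5 mice at 3 weeks lay below all 12 at 8 weeks, against 10.2% of all genes. The 7 that were not called were Chrna5, Drd1, Adra2a, Htr1a, Htr2c, Htr3a and Adrb3, with differences from -0.21 for Chrna5 to 0.18 for Htr1a. With size factors Htr1a was called higher at 3 weeks and 19 receptors were lower. Of the calls over all genes 47.4% were then higher, against 2990 higher and 6402 lower before. The share of all genes called in that scaling is again not given. In the quantile scaling Adrb3 and Htr1a were both called higher. Without the filter on low values, Chrnb4 was called higher at 3 weeks in controls (0.075, SE 0.0213, adjusted p = 0.0299) and Chrna10 over all groups (0.14, SE 0.0414, adjusted p = 0.0219), nicotinic subunits that stayed at or below 0.11 and 0.32 TPM in every mouse.

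Ratios within a mouse do not depend on the scaling of its library. Chrna4 was at 0.811 to 0.873 times the level of Chrnb2 in the 5 mice at 3 weeks and at 0.866 to 1.22 times in the 12 at 8 weeks. The mean log2 ratio was -0.25 ± 0.0473 (SD, n = 5) at 3 weeks and 0.046 ± 0.126 (SD, n = 12) at 8 weeks, and the difference was -0.30 (two-sided exact permutation test, p = 0.000646, adjusted p = 0.00129). Htr2a was at 0.935 to 2.62 times the level of Htr1a at 3 weeks and at 2.02 to 3.39 times at 8 weeks, with mean log2 ratios of 0.67 ± 0.531 (SD, n = 5) and 1.49 ± 0.194 (SD, n = 12). That difference was -0.82 (two-sided exact permutation test, p = 0.00129, adjusted p = 0.00129). Both pairs were chosen after their values had been seen, and the p-values were adjusted over these 2 alone. They therefore do not measure how unusual such ratios are among pairs of receptors. The test shuffled mice of all groups freely, and the 3-week mice are all of the P209L line. The smallest p that 5 against 12 mice allow is 0.000323. Chrnb2 overlaps with Adar, annotated on the opposite strand.

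Downstream of the receptors, the same contrast of the controls was read in lists of partner genes. Of 9 tested G protein alpha subunits 6 were lower at 3 weeks and none higher, among them Gnaq (-0.77, SE 0.143, adjusted p = 0.000918), through which Gq/11 receptors signal, and Gnal (-0.67, SE 0.122, adjusted p = 0.000855), an alpha subunit that raises cyclic AMP. Of 10 adenylyl cyclases and phospholipases C beta 5 were lower and none higher, with Adcy1 (-1.35, SE 0.152, adjusted p = 3.27e-05), Adcy9 (-1.37, SE 0.268, adjusted p = 0.00135) and Adcy5 (-0.71, SE 0.119, adjusted p = 0.000468) among them. The potassium channel subunit Kcnj6, which opens on Gi/o signals, was among 4 of 10 potassium channel and DARPP-32 pathway genes that were lower (-1.72, SE 0.224, adjusted p = 8.22e-05). Of 12 receptor kinases, arrestins and RGS proteins 4 were lower, with Grk2 (-0.80, SE 0.136, adjusted p = 0.000502) and Arrb1 (-0.73, SE 0.139, adjusted p = 0.00116) among them. Of 8 nicotinic chaperones and Ly6 proteins 2 were lower, among them Lypd6 (-0.38, SE 0.0956, adjusted p = 0.00661), and 1 was higher. The nicotinic chaperone Ric3 was lower (-0.39, SE 0.134, adjusted p = 0.0313) and the Ly6 protein Ly6h, which restrains nicotinic receptors, was higher (0.48, SE 0.169, adjusted p = 0.0379). These shares stand beside the 24.8% of all genes called lower. In the KO, R206W and P209L comparisons no member of these lists was called.

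Many genes that make and clear the transmitters are known from neurons whose cell bodies lie outside the cortex. Of 9 genes of monoamine synthesis 4 were tested, and 2 were higher and 1 lower at 3 weeks. Of these, Tph2, the neuronal enzyme that starts serotonin synthesis, was higher (0.46, SE 0.134, adjusted p = 0.0152). Pts, which makes the biopterin cofactor, was higher (0.46, SE 0.156, adjusted p = 0.0325) and Spr, a later step of the same route, was lower (-0.46, SE 0.101, adjusted p = 0.00282). Of 8 acetylcholine genes 4 were tested and 1 was lower, Acly (-0.90, SE 0.21, adjusted p = 0.00431), which supplies acetyl-CoA in many cells. Of 10 genes of monoamine uptake, storage and breakdown 4 were tested and none was called between the controls. Beside these counts stand 11.3% of all genes called higher at 3 weeks and 24.8% called lower.

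In the density of G runs, the median of the 27 tested receptors was near that of all tested genes. Runs of 3 or more G, which hnRNP H proteins are known to bind, were counted in a single annotated transcript per gene, without introns. They occurred 13.4 times per kb in the median tested receptor and 12.2 times in the median of all tested genes with an annotated transcript. The range among receptors was 5.82 to 24.2. Adra1b had 19.5, Htr1b 10.6 and Chrm2 8.10 such runs per kb.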

How the data were processed

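RNA from frozen bulk cortex treated with RNAlater-ICE was extracted with an RNeasy kit, and libraries were made with a stranded total RNA kit (TruSeq). The submitters' processing notes name Trim Galore, STAR 2.7.1a, GATK 4.0.4.0, RSEM and the build mm10, without role or order, and the strand setting of the counting is not given in the sources used here. The deposited file gives TPM for each gene symbol in 17 mice, a unit already scaled by the authors for length and library total. TPM keep no depth, so that the depth per sample is unknown and no counting error is given.

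The 120 rows that repeated a symbol were summed, which left 55453 symbols. Values were taken as log2(TPM + 1), and the 16265 genes with a mean of at least 1 TPM were fitted with limma 3.58.1 (R 4.3.3), with a mean for each group and eBayes with trend=TRUE. Tests were two-sided, with Benjamini-Hochberg adjustment over all genes and a threshold of 0.05. No test for these mouse data was stated in the sources used here. The script was tested on simulated data. Single values were compared by exact permutation (scipy 1.17.1). Whether the mice of a group came from separate litters is not stated, so p-values measure the spread between these samples. Receptors and partner genes with an adjusted p under 0.05, or the smallest p in a mutant comparison, were named with their values, and the partner lists, markers and receptors were chosen with earlier results of these data known. Coordinates and transcripts came from GENCODE M21 (GRCm38), which held all 49 receptors, and upstream sequences from RefSeq. The deviations of same-numbered mice of a line from their group means had correlations of -0.113 to 0.331. The highest was that of KO 3 with KO control 3. So few pairs per line cannot decide whether the numbers pair the mice, and the main fit left them unpaired. Alternatives covered pseudocount, filter, scaling, weights, the mice fitted and the leaving out of each mouse. One tested receptor was kept in the fits, counts and sums but is not reported singly here.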

Additional observations from a re-analysis of the deposited data

Results flagged for a closer look

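Among the 8-week controls, a set of 6 made of the controls of both lines, KO control 1 lay far below the other 5 for the summed receptors and most families: 201.4 TPM over all receptors against 337.3 to 390.1 TPM, 42.8 against 60.2 to 70.6 TPM for serotonin, 44.2 against 74.7 to 87.8 TPM for adrenergic, 82.5 against 148.6 to 180.5 TPM for muscarinic and 27.04 against 45.01 to 51.1 TPM for nicotinic receptors. It did so as well for single receptors, with 5.71 TPM of Adra1a, 6.77 TPM of Adra1d, 47.1 TPM of Chrm1, 3.87 TPM of Chrm2, 16.96 TPM of Chrm3, 8.3 TPM of Chrna4, 6.56 TPM of Chrna7, 8.62 TPM of Chrnb2, 1.97 TPM of Htr1b, 10.22 TPM of Htr2a and 6.06 TPM of Htr5a. For Htr1b the other 5 controls lay between 4.14 and 4.44 TPM.

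Among the 5 mice at 3 weeks, P209L 3 lay far above the other 4 for all receptors summed (256.7 against 201.2 to 213.5 TPM), for adrenergic (55.8 TPM) and muscarinic receptors (102.9 TPM), and for Adra1b (15.22 against 6.05 to 7.27 TPM), Adra1a (4.36 TPM) and Chrm3 (22.55 TPM). For Adra2c it was P209L 1 that stood out, at 5.5 TPM. In all, 23 of 52 sets of values examined had such a mouse, where chance gives about 1 in 20, and most of them share a library.

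Htr5b, which was under the filter of the main comparisons, was higher in P209L mice by 0.79 on the log2(TPM + 1) scale when all genes were fitted.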

How the results depend on the processing

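No receptor difference called in the main comparisons changed direction under an alternative. With sample weights (0.0819 for KO control 1 to 4.01 for KO control 2) 8 receptors were called in the KO comparison, all lower, against 10% of all genes called lower (Adra1b, Adra1d, Chrm2, Chrm4, Chrna4, Htr1b, Htr2a and Chrm1, which was at -0.43 there and at 0.039 without weights), 1 in R206W (Adra1b, 0.72, adjusted p = 0.0121), 3 for the KO effect minus the R206W effect (Adra1b, Chrna4 and Htr2a, below 0 like 1.38% of all genes) and 21 lower at 3 weeks in controls, against 41.6% of all genes. Fitting the R206W mice and their controls alone gave 1 call in R206W, Adra1b (adjusted p = 0.0355), and its adjusted p ranged to 1 over the 29 alternatives. Without a filter 11 receptors were called between the ages in controls, Chrnb4 among them as higher. That fit called 1 receptor, Htr5b, in P209L, where none was called with the filter at 0.5 TPM, which was added after the data had been seen. Leaving out single mice gave 5 to 20 calls between the ages in controls, and 18 to 21 over all groups. With the replicate block, the KO, R206W and P209L comparisons had 0 calls, as had the differences between them and between the controls, and the ages differed in 13 receptors in controls and 21 over all groups. Whether the numbers pair the mice is not known, and the block moved no count by more than 1. The cause of these changes was not tested. TPM carry no depth, and 2 or 3 mice per group limit the precision.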
